A study of Mus musculus with 6 samples.

Results

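The genes of glycolysis and of the response to low oxygen were followed across 6 arrays of the mouse line Ba/F3, cells of pro-B origin that depend on interleukin 3. The set was a list of 32 genes named for their place in glycolysis or as targets of the factor HIF1, and each gene was read from its brightest probe set by mean signal over the 6 arrays. Of the 32 genes, 29 had a probe set annotated to 1 gene only, and 26 of these were bright enough to be tested, out of 18193 genes with such a probe set and 10916 tested in all. Gpi1, Eno1 and Bnip3l had no probe set annotated to 1 gene and were not analysed here. In 1 group, 3 cultures were given doxycycline (DOX) to switch on NCOR1-LYN, a protein joining parts of the nuclear receptor corepressor NCOR1 and of the tyrosine kinase LYN. The control group was 3 cultures of the same kind left without doxycycline. The construct had been brought in by retroviral transduction with a Tet-on system, and whether the line is 1 clone is not given in the sources used here. Since the drug went with the protein in every culture, effects of doxycycline and of NCOR1-LYN cannot be told apart.

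Glycolysis splits glucose into pyruvate in the cytosol, and cells that divide fast or lack oxygen turn much of that pyruvate into lactate. The transcription factor HIF1, a pair of the oxygen-regulated subunit HIF1A and the stable subunit ARNT, raises transcription of most glycolytic enzymes, of glucose transporters and of genes that spare or remove mitochondria. With oxygen present, prolyl hydroxylases of the EGLN family mark HIF1A for destruction, so HIF1 activity is set largely at the protein level, which arrays do not measure.

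The 3 genes below the signal filter were Egln3, which encodes a prolyl hydroxylase, Slc16a3, which encodes a lactate exporter, and P4ha2, which encodes a collagen prolyl hydroxylase. Their signals lay between 1.37 and 58.0 on all 6 arrays, and they are counted in none of the tests. The filter stood at a mean signal of about 47, with Aldoc just inside it at a mean of 50.1 and Slc16a3 just outside it at 36.0. Arrays numbered replicate 1 stood apart from the others in both groups, so the genes on which the comparison of the groups turns are also given by same-numbered pair or without those arrays. Ratios of 3′ to 5′ signal of the actin control probe sets were 1.15 and 1.17 on the replicate 1 arrays, against 1.19 to 1.24 on the others. Control probe sets named for Gapdh, a glycolytic enzyme gene with no probe set of 1 gene here, read 22009 and 21754 at the 3′ end in replicate 1, against 21141 to 23623 on the other 4 arrays. Of 9 marker genes of the B lymphoid lineage with a probe set of 1 gene, Cd79b had signals of 403 to 577, while Cd79a, Ebf1, Vpreb1, Rag1, Il7r and Blnk were below the filter, and Pax5 and Igll1 lay between 7.65 and 179. Of the 3 interleukin 3 receptor genes, Csf2rb (12267 to 25885) and Csf2rb2 (7821 to 19369) were bright, and Il3ra read 403 to 727. The pro-B origin of the line thus showed in few of these markers.

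**Figure D1:**
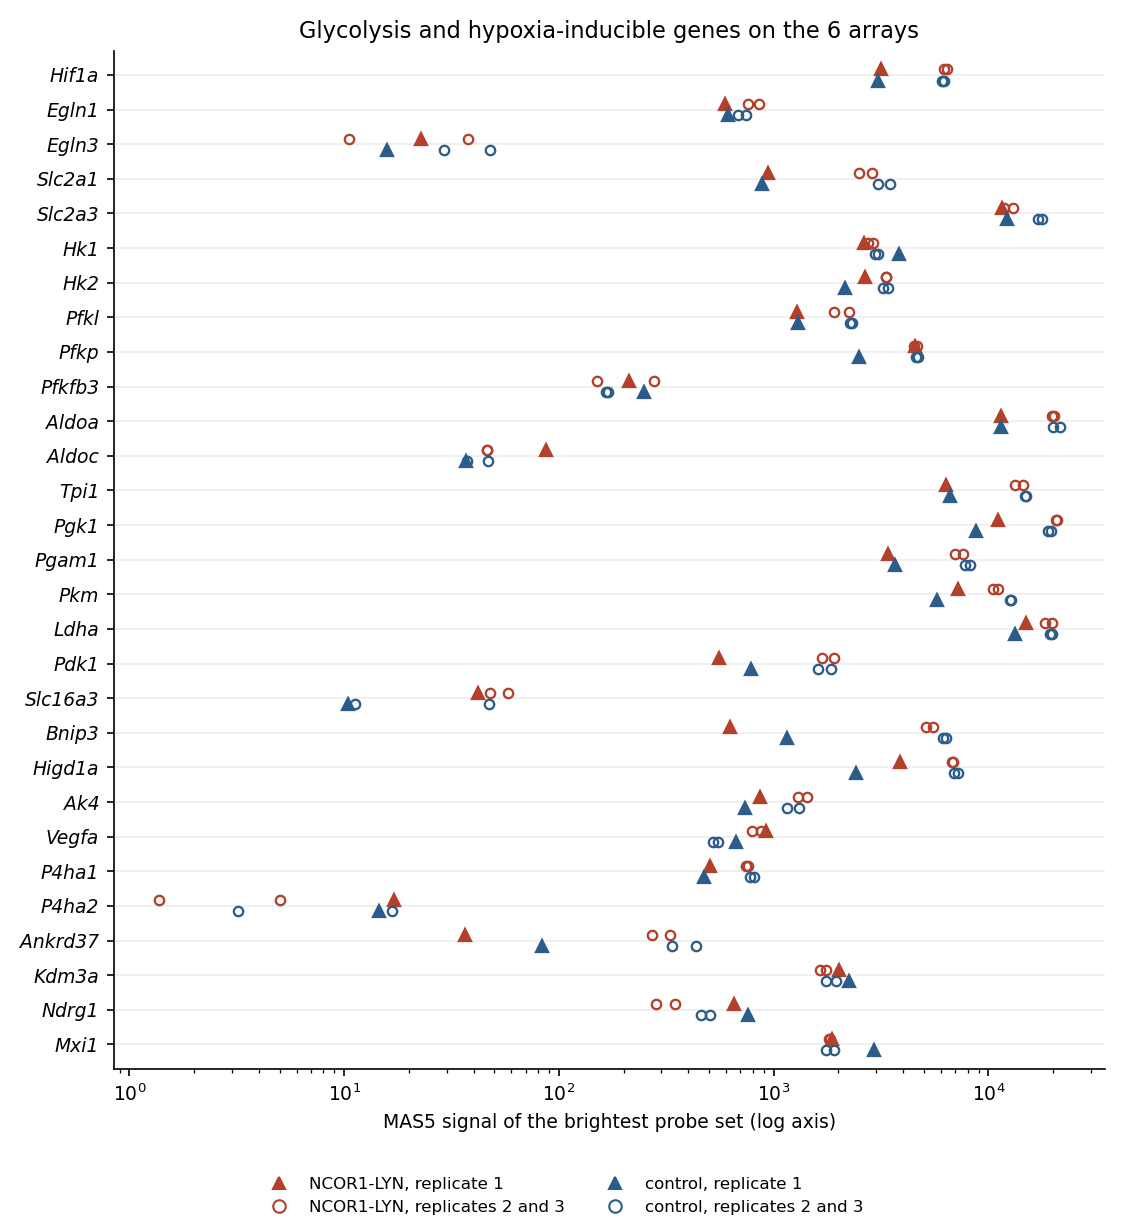
MAS5 signals (log axis) of the 29 genes with a probe set, on each of the 6 arrays, NCOR1-LYN above control in each row, with triangles for replicate 1 and circles for replicates 2 and 3. In 17 of the 26 tested genes both triangles lie below all 4 circles, as in Bnip3 with 629 and 1147 in replicate 1, against 5125 to 6316 in replicates 2 and 3.

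The comparison of NCOR1-LYN with control asked which pathways changed when the protein was induced. None of the 26 genes rose and none fell in limma at an adjusted p of 0.05, where 0.0550% of all genes tested were higher and 0.0275% lower. With the replicate number as a block, which takes the pair differences out, the count was again 0 and 0, where 0.266% of all genes tested were higher and 0.559% lower. At an unadjusted p under 0.05 there were 1 of the 26 genes without the block and 5 with it, of 519 and 1231 among all genes tested. The smallest adjusted p was 0.609 without the block and 0.113 with it, both for Vegfa. Log2 fold changes ran from −0.42 to 0.53 with a median of −0.04, and the median over all genes tested was −0.01. With the block, the 95% interval of every one of the 26 genes lay within a 2-fold change in either direction, and without it that held for 17.

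Among the regulators, Hif1a, the gene of the oxygen-regulated subunit of HIF1, had pairwise log2 fold changes of 0.04, 0.02 and 0.04 in pairs 1, 2 and 3. Its 95% interval with the block ran from −0.17 to 0.24. Egln1, the gene of the main oxygen-sensing hydroxylase, had −0.05, 0.18 and 0.15. At these brightest probe sets the pairs of neither gene moved by more than 0.18 on the log2 scale. Dimmer Hif1a probe sets above the filter moved more, with 0.13, 0.49 and 0.37 in one and −0.11, 0.24 and 0.27 in another. A dimmer Egln1 set had −0.15, 0.03 and −0.1.

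The glucose transporter genes differed in their pairs. Slc2a3, which encodes the high-affinity transporter GLUT3, had signals of 11540, 11836 and 12958 with NCOR1-LYN, against 12214, 17745 and 17036 in control. Only control replicates 2 and 3 stood high, and the replicate 1 arrays of both groups lay close together. The log2 fold change was −0.35 ± 0.16 (SE, limma adjusted p = 0.999). Without both replicate 1 arrays Slc2a3 fell by 0.49 on the log2 scale (limma adjusted p = 0.00204, 2 arrays a group). The dimmer probe sets of Slc2a3 had pairwise log2 fold changes of 0.07, −0.75 and −0.84, of −0.22, −0.82 and −0.95, and of −0.31, −0.76 and −1.14. All 4 probe sets of the gene were therefore lower with NCOR1-LYN in pairs 2 and 3. The brightest is of a type that, by its suffix, can take up more than 1 transcript. Slc2a1, which encodes the widely expressed transporter GLUT1, had pairwise changes of 0.08, −0.09 and −0.47, with no common direction.

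Enzymes of glycolysis showed little difference between the groups. Hk1 encodes hexokinase 1, which phosphorylates glucose in the first step. It had signals of 2621, 2742 and 2914 with NCOR1-LYN, against 3838, 3057 and 2972 in control. Hk1 was the only one of the 26 genes with all NCOR1-LYN arrays below all control arrays, an arrangement found in 6.06% of all genes tested. Most of its difference lay in pair 1, at −0.54, against −0.15 and −0.03 in pairs 2 and 3 (limma adjusted p = 0.999 without and 0.526 with the block). Hk2, the gene of hexokinase 2, had 0.30, −0.02 and 0.06. Pgk1, the gene of the first ATP-forming enzyme of the pathway, had 0.33, 0.14 and 0.10 at its brightest probe set. It was 1 of 3 genes of the set with all 3 pairs above 0 by that reading, against 1731 of the 10916 genes tested. The further Pgk1 probe sets had mixed signs, with 0.18, −0.18 and −0.07 in one and 0.41, −0.4 and 0.13 in another. Tpi1, Pgam1 and Aldoa, which encode triosephosphate isomerase, phosphoglycerate mutase and aldolase A, lay between −0.23 and 0.01 in every pair. Ldha, the gene of the lactate dehydrogenase subunit that favours lactate formation, had 0.17, −0.11 and 0.03.

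Vegfa, the gene of the main growth factor for blood vessels, had signals of 918, 870 and 789 with NCOR1-LYN, against 664, 522 and 550 in control. Every NCOR1-LYN array lay above every control array, in Vegfa alone of the 26 genes, where this held for 5.17% of all genes tested. The log2 fold change was 0.53 ± 0.14 (SE, limma adjusted p = 0.609), with 0.43, 0.67 and 0.48 in the pairs. Summed signals of the 9 myeloid markers also parted the groups, at 7432 to 10401 with NCOR1-LYN, against 2471 to 2595 in control. Singly, only Ngp (4118 to 4686 against 153 to 1216) and Ltf (502 to 657 against 36.9 to 85.1) of these 9 did so. Prtn3, Mpo and Lyz2 overlapped, with −0.01 for Prtn3 in pair 1, and Elane, Ctsg, Itgam and Camp were below the filter. Sums of the 7 mast cell markers overlapped between the groups, but single genes parted them in both directions. Fcer1a was higher with NCOR1-LYN (1596 to 4386 against 341 to 975). Gata2 (4339 to 6373 against 7669 to 14084) and Cma1 (5.74 to 80.5 against 186 to 615) were lower. The part of these markers was not tested. Vegfa rose without both replicate 1 arrays, by 0.57 on the log2 scale (limma adjusted p = 0.00617). A dimmer Vegfa probe set had 502, 369 and 421 with NCOR1-LYN, against 368, 344 and 407 in control, and there the groups overlapped.

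Ndrg1, which encodes a stress-responsive protein and is induced by low oxygen, had 655, 284 and 347 with NCOR1-LYN, against 757, 459 and 506 in control. All 3 pairs were below 0, at −0.19, −0.59 and −0.47, while the groups overlapped because both replicate 1 arrays stood high. Without those arrays Ndrg1 fell by 0.53 on the log2 scale (limma adjusted p = 0.0353). Its 4 dimmer probe sets had fold changes over all pairs of −0.33, −0.31, −0.41 and −0.23 on that scale. Vegfa, Slc2a3 and Ndrg1 were the genes of the set that passed without the replicate 1 arrays, 1 higher and 2 lower, in a fit where 3.16% of all genes tested were higher and 3.62% lower. Of the other alternatives run, array weights alone gave calls, with Vegfa higher and Slc2a3 lower.

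Bnip3, the gene of a mitophagy receptor in the outer mitochondrial membrane, had pairwise log2 fold changes of −0.81, −0.15 and −0.30. Ankrd37, a HIF1 target gene that encodes an ankyrin repeat protein, had −0.56, −0.34 and −0.25. Both were lower with NCOR1-LYN in all 3 pairs, as were 9 of the 26 genes, against 2062 of the 10916 genes tested. Neither passed the threshold (limma adjusted p = 0.999 without the block for each, 0.315 and 0.363 with it).

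**Figure D2:**
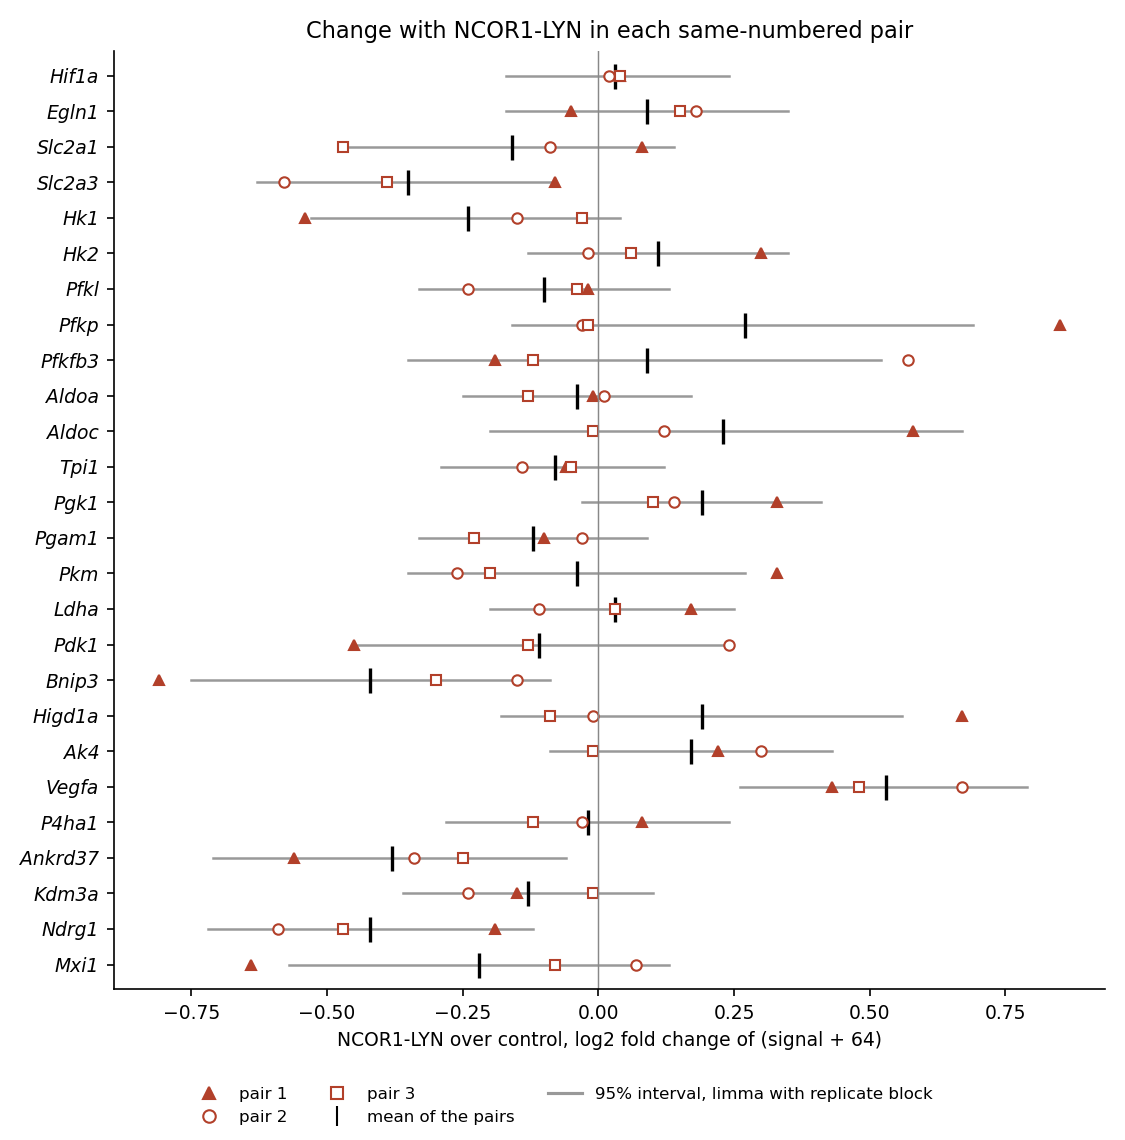
Log2 fold change of NCOR1-LYN over control in each same-numbered pair for the 26 tested genes, with the mean of the pairs and its 95% interval from limma with the replicate block. All intervals lie within −1 and 1, and Vegfa has the largest mean at 0.53, with 0.43, 0.67 and 0.48 in the pairs.

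Arrays of replicate 1 were then set against those of replicates 2 and 3 over both groups. This split was chosen because earlier results of these data had shown replicate 1 apart, so its p-values mainly describe. The labels number the arrays alike in each group and state no day or batch for these numbers. Of the 26 genes, 16 (61.5%) were lower in replicate 1 and 1 (3.85%) was higher in limma at an adjusted p of 0.05, where 11.0% of all genes tested were lower and 14.6% higher. Both replicate 1 arrays lay below the other 4 in 17 of the 26 genes (65.4%), against 21.4% of all genes tested, and above them in 2, against 26.8%. The median log2 difference was −0.63, where that of all genes tested was 0.04 (−0.07 with arrays centred on their median). It was −0.55 within the NCOR1-LYN arrays and −0.74 within the control arrays. In bulk RNA, fewer cells with a transcript and less of it per cell cannot be told apart. A 2-fold or larger fall was found in 8 of the 26 genes and in 117 of the 10916 genes tested. Summed signals of the 3 erythroid markers with a probe set also moved with replicate 1, at 3631 to 5979 against 2208 to 2881 in replicates 2 and 3. Klf1 and Epor made up nearly all of that sum, Hba-a1 stayed at 2.38 to 38.1, and no marker was listed at 0. The 9 B lymphoid markers summed to 728 to 918 in replicate 1, against 668 to 713, and the 6 fibroblast markers to 107 in both replicate 1 arrays, against 144 to 220. Only 1 of these fibroblast markers was above the filter, Col1a2 at 4.08 to 89.5, and it did not pass (limma adjusted p = 0.0982). Sums of the other marker lists overlapped or met between the replicates, but single genes of them passed, with Lyz2 (1.16), Cma1 (1.06), Gata2 (0.61) and Il3ra (0.61) higher in replicate 1 and Mpo (−1.38) lower on the log2 scale. The part of all these markers in the result was not tested.

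The mitochondrial genes held the largest difference. Bnip3 had signals of 629 in the NCOR1-LYN and 1147 in the control array of replicate 1, against 5517 and 5125 with NCOR1-LYN and 6149 and 6316 in control for replicates 2 and 3. Its mean signal in replicate 1 was 0.154 times that in replicates 2 and 3, a log2 difference of −2.67 ± 0.15 (SE, limma adjusted p = 6.48e-04). No other gene of the set differed as much. Higd1a, whose protein sits in the inner mitochondrial membrane and acts on the respiratory chain, read 3887 with NCOR1-LYN and 2420 in control in replicate 1, against 6732 to 7181 on the other arrays. The log2 difference was −1.16 ± 0.16 (SE, limma adjusted p = 0.00551). Its dimmer probe sets, at 280 to 445 and 48.3 to 78.6, had differences of 0.30 and −0.09. Ak4, the gene of a mitochondrial adenylate kinase, read 860 and 732 in replicate 1, against 1150 to 1433 on the others (log2 difference −0.66 ± 0.12 SE, limma adjusted p = 0.00963).

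Ankrd37 read 36.4 with NCOR1-LYN and 83.5 in control in replicate 1, against 272 to 435 on the other 4 arrays. Both replicate 1 signals were dim, so the log2 difference of −1.73 ± 0.15 (SE, limma adjusted p = 0.00219) is understated by the added 64. The other HIF1 targets of unlike function went the other way or did not pass. Ndrg1 rose, with a log2 difference of 0.76 ± 0.14 (SE, limma adjusted p = 0.0101) on the signals given above, and its 4 dimmer probe sets had 0.62, 1.04, 1.14 and 1.13. Kdm3a, which encodes a histone H3 lysine demethylase, read 2020 and 2253 in replicate 1, against 1648 to 1956 on the others. These arrays did not overlap, but the log2 difference of 0.26 did not pass (limma adjusted p = 0.111). Mxi1, the gene of a MAX partner that opposes MYC, had a difference of 0.03 within NCOR1-LYN and of 0.66 within control.

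Slc2a1 read 936 with NCOR1-LYN and 880 in control in replicate 1. The other arrays read 2881 and 2503 with NCOR1-LYN and 3070 and 3485 in control. Both replicate 1 signals lay far below the others in each group, while within replicates 2 and 3 both NCOR1-LYN arrays lay below both control arrays (log2 fold change −0.28 without replicate 1, limma adjusted p = 0.103). The log2 difference of replicate 1 was −1.64 ± 0.13 (SE, limma adjusted p = 0.00191). Its dimmer probe sets had −1.38 and −1.17. Slc2a3 had −0.30 ± 0.12 (SE, limma adjusted p = 0.112), while its dimmer sets had −0.75, −0.87 and −1.17, and the mean of its 4 probe sets passed (−0.77, limma adjusted p = 0.0213). The brightest probe set of Slc2a3 thus gave the smallest difference of the 4.

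Pdk1, the gene of a kinase that shuts pyruvate out of the mitochondrial citric acid cycle by blocking pyruvate dehydrogenase, read 557 with NCOR1-LYN and 787 in control in replicate 1. The other arrays read 1905 and 1685 with NCOR1-LYN and 1606 and 1844 in control. The log2 difference was −1.32 ± 0.15 (SE, limma adjusted p = 0.00327), while 2 dimmer Pdk1 probe sets had −0.65 and −0.20. Ldha, which acts on pyruvate at the other branch, read 14913 and 13261 in replicate 1, against 18256 to 19765 on the others. It fell less, with a log2 difference of −0.45 ± 0.10 (SE, limma adjusted p = 0.0209).

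All 4 tested enzymes of the lower, ATP-forming part of glycolysis, counting triosephosphate isomerase, were lower in replicate 1. Tpi1 read 6336 with NCOR1-LYN and 6607 in control, against 13354 to 14941 on the other arrays (log2 difference −1.14 ± 0.09 SE, limma adjusted p = 0.00191). Pgk1 read 11044 and 8764, against 18867 to 20953 (−1.02 ± 0.10). Pgam1 read 3399 and 3651, against 7007 to 8227 (−1.10 ± 0.10). In these 3 genes the replicate 1 signal was 0.450, 0.494 and 0.461 times that of replicates 2 and 3. Pkm, which encodes the muscle-type pyruvate kinase of the last step, read 7206 and 5739, against 10483 to 12779 (−0.86 ± 0.14). The further probe sets of Tpi1 had −1.09 and −1.15 and those of Pgk1 −0.68 and −0.65. The brightest sets of Tpi1, Pgk1 and Aldoa are of a type that, by its suffix, may bind related transcripts, and these genes have processed pseudogenes, so part of their signal is of uncertain origin.

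In the upper part, 3 of 7 tested genes were lower. Aldoa read 11377 with NCOR1-LYN and 11473 in control in replicate 1, against 19655 to 21461 on the others (log2 difference −0.83 ± 0.09 SE, limma adjusted p = 0.00321). The further Aldoa probe sets had −0.62, −0.82, −0.43 and −0.23. Pfkl, the gene of the liver-type subunit of phosphofructokinase, read 1282 and 1303, against 1905 to 2307 (−0.72 ± 0.10). Hk2 read 2656 and 2147, against 3221 to 3390 (−0.47 ± 0.11, limma adjusted p = 0.0224). Hk1 (0.12), Pfkp (−0.45), Pfkfb3 (0.23) and Aldoc (0.19) did not pass. Pfkfb3 makes the allosteric activator of phosphofructokinase and had signals of 150 to 276, and Aldoc, a brain-type aldolase gene, had 37.1 to 86.9.

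Hif1a itself read 3158 with NCOR1-LYN and 3061 in control in replicate 1, against 6100 to 6386 on the other 4 arrays. Its signal in replicate 1 was 0.500 times that of replicates 2 and 3, a log2 difference of −0.99 ± 0.09 (SE, limma adjusted p = 0.00228). One dimmer probe set gave −0.83 and another −0.04, so the fall was not seen at all probe sets of Hif1a. Egln1 had −0.31 ± 0.12 (SE, limma adjusted p = 0.0952). P4ha1, the gene of a collagen prolyl hydroxylase, read 506 and 474 in replicate 1, against 743 to 812 on the others (−0.60 ± 0.12, limma adjusted p = 0.0130). Vegfa had 0.21 ± 0.12 (SE, limma adjusted p = 0.232).

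Over the 18 genes with more than 1 probe set above the filter, 31 of 35 further probe sets had a replicate 1 difference of the same sign as the brightest set. The opposite signs were found in 1 set each of Pfkl, Pfkp, Pfkfb3 and Higd1a. Across the 26 genes the difference within NCOR1-LYN correlated with that within control at r = 0.88, against r = 0.62 across the 10916 genes. Genes are not independent replicates, and the points share probe sets and the replicate numbers, so both values only describe these arrays. In 16 of the 26 genes the call was lower, and 6 of those calls (Hk2, Pfkl, Ldha, Ak4, P4ha1 and, with the mean of all probe sets, Higd1a) were lost under at least 1 alternative setting. Leaving out single arrays of replicates 2 and 3 gave 11 to 13 lower genes.

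**Figure D3:**
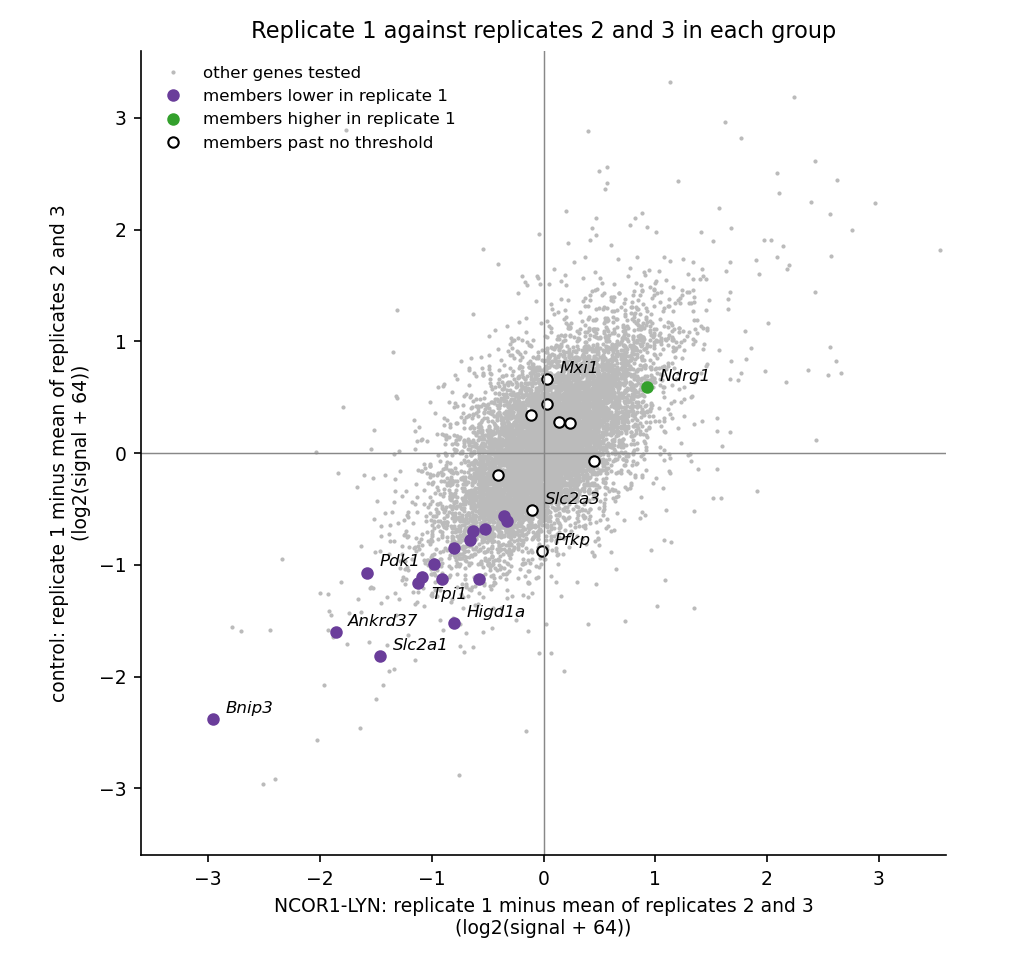
Replicate 1 minus the mean of replicates 2 and 3 in log2(signal + 64), within NCOR1-LYN (x axis) and within control (y axis), for all genes tested (grey, 6 of them outside the axes) and the 26 genes (large points). Bnip3 lies at −2.96 and −2.38, Ndrg1 at 0.93 and 0.59, and Pfkp at −0.01 and −0.88.

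Promoter sequences were read for the 4 genes with the largest replicate 1 differences, to show where the short core motif that HIF1 binds occurs. The windows run from 250 bases before to 50 bases after the RefSeq gene start on the strand of the gene (GRCm38.p6), and capitals mark each ACGTG or GCGTG on either strand (CACGT and CACGC when read on the other). They are Bnip3 on chr7:138909457-138909756 (minus strand), Ankrd37 on chr8:45999801-46000100 (minus strand), Slc2a1 on chr4:119108495-119108794 (plus strand) and Pdk1 on chr2:71872974-71873273 (plus strand).
Bnip3: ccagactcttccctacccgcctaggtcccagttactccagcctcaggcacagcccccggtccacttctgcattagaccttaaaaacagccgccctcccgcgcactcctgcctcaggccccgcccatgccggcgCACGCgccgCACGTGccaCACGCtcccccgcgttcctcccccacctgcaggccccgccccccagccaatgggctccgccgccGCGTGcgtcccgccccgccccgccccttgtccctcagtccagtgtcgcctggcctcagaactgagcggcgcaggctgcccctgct
Ankrd37: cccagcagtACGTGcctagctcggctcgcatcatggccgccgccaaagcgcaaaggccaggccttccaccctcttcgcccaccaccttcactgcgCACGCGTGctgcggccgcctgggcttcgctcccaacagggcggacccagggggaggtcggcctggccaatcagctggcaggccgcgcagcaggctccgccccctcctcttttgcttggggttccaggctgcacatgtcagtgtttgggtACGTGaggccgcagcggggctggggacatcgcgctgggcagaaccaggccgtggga
Slc2a1: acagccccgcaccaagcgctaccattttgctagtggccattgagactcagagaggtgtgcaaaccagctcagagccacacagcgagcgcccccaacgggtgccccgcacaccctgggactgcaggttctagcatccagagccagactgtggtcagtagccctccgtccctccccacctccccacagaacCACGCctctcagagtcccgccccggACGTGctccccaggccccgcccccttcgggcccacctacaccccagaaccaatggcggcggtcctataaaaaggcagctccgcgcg
Pdk1: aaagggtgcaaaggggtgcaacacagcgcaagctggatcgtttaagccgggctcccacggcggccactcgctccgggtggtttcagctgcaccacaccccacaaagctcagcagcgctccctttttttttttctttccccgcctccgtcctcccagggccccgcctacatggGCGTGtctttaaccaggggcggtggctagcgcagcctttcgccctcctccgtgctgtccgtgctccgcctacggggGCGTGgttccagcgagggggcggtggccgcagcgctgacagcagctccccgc
Bnip3 had 5 such matches, of which 2 overlap in the palindrome CACGTG, Ankrd37 had 4, Slc2a1 had 2 and Pdk1 had 2, with none in a second Pdk1 window. At least 1 match was found in 27 of the 29 listed genes with a window (93.1%), in 5985 of 8927 tested genes with one (67.0%) and in 46.7% of all 27025 genes in the table. By window the shares were 78.7% for the listed genes and 61.2% for the tested genes, since some genes have several starts. The set was listed as glycolysis genes or HIF1 targets, so its share is tied to that choice. Binding of HIF1 was not tested. Nearly all listed genes had a match, so its presence could not part them by their calls. It was found in 15 of 16 genes lower in replicate 1 (93.8%) and in 8 of 8 not called. At least 2 matches in a window were found in 13 of those 16 (81.2%) and 6 of those 8 (75.0%). Among all tested genes that share was 38.3%. At least 1 match was present in 69.0% of all tested genes lower in replicate 1 and in 69.2% of those higher. Tpi1 and Gpi1 had none of these letters in the windows read, and Slc2a3, Bnip3l and Ndrg1 were not looked at.

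The change with NCOR1-LYN differed between pair 1 and pairs 2 and 3 in 6 of the 26 genes (23.1%), 3 higher and 3 lower, in limma at an adjusted p of 0.05. Among all genes tested 5.22% were higher and 6.79% lower in that test. The spread in it comes from replicates 2 and 3 alone, and 0 of the 26 genes passed when limma was run without an intensity trend, where adjusted p for these 6 ran between 0.0667 and 0.152. At an unadjusted p under 0.05 there were 10 of the 26 genes with the trend, against 2956 of the 10916 genes tested.

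Pfkp, the gene of the platelet-type subunit of phosphofructokinase, read 4564, 4522 and 4642 with NCOR1-LYN in replicates 1 to 3, against 2496, 4606 and 4722 in control. The control array of replicate 1 stood low alone. The change in pair 1 exceeded that in the other pairs by 0.88 ± 0.10 on the log2 scale (SE, limma adjusted p = 0.00128). Both further Pfkp probe sets also had their highest change in pair 1, at 0.71 and 0.79. In the set with 0.79, the control array of replicate 1 was not low, at 149 against 101 and 75.0. There the NCOR1-LYN array of replicate 1 stood high, at 305 against 95.9 and 64.6. Higd1a changed by 0.67, −0.01 and −0.09 in pairs 1, 2 and 3, a difference of 0.72 ± 0.10 (SE, limma adjusted p = 0.00305). Pkm changed by 0.33, −0.26 and −0.20, a difference of 0.55 ± 0.11 (SE, limma adjusted p = 0.0118). In these 3 genes the control array had the lower signal within replicate 1.

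Mxi1 read 1860, 1836 and 1810 with NCOR1-LYN, against 2938, 1748 and 1917 in control. Here the control array of replicate 1 stood high alone, and the difference between pairs was −0.64 ± 0.12 (SE, limma adjusted p = 0.0124). A dimmer Mxi1 probe set had pairwise changes of −0.69, −0.18 and 0.02. Hk1 had the same shape, with a difference of −0.45 ± 0.11 (SE, limma adjusted p = 0.0323), and a dimmer Hk1 set changed by −0.69, 0.02 and 0.11. In Bnip3 the NCOR1-LYN array of replicate 1 was the lowest of all, and the difference was −0.58 ± 0.11 (SE, limma adjusted p = 0.0129). Slc2a3 had 0.41 ± 0.12 and Pdk1 −0.51 ± 0.16, which did not pass (limma adjusted p = 0.0550 and 0.0756).

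**Figure D4:**
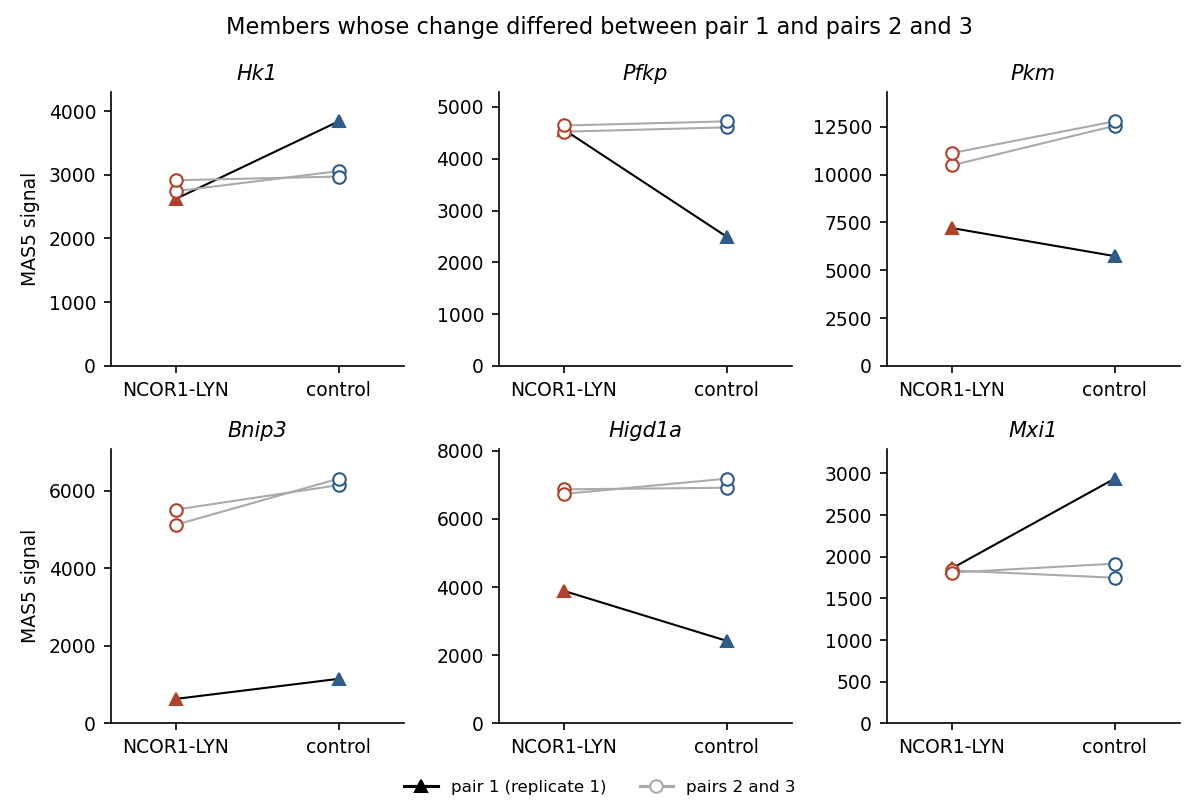
MAS5 signals (linear axes from 0) of the 6 genes whose change differed between pairs, NCOR1-LYN left and control right, with lines joining same-numbered arrays. The replicate 1 control array of Pfkp reads 2496, against 4606 and 4722 in the other controls, and that of Mxi1 reads 2938, against 1748 and 1917.

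Of 86 other genes of these pathways, 77 had a probe set of 1 gene and 65 were tested. With NCOR1-LYN none rose and none fell without the block, and 1 of each passed with it. Bhlhe40, which encodes a transcriptional repressor that HIF1 and other factors induce, read 5220, 6296 and 6290 with NCOR1-LYN, against 3186, 3112 and 3054 in control. Its groups lay far apart, with a log2 fold change of 0.91 ± 0.10 with the block (SE, limma adjusted p = 0.0200, and 0.0826 without the block). Eno3, the gene of muscle enolase, read 983, 885 and 979 with NCOR1-LYN, against 1902, 1478 and 1453 in control. It fell by 0.72 on the log2 scale with the block (SE 0.11, limma adjusted p = 0.0485, and 0.308 without it). In the other lists none passed either fit, and the gene with the largest change in each had its highest pair value in pair 1. Pdhx, a pyruvate dehydrogenase component, had a log2 fold change of 0.33 over pairs of 0.62, 0.12 and 0.25 (limma adjusted p = 0.412 with the block), and 0.18 without the replicate 1 arrays. Siah2, a ubiquitin ligase that acts on EGLN proteins, had 0.35 over pairs of 0.96, −0.03 and 0.11 (limma adjusted p = 0.581 with the block), and 0.04 without those arrays. The pair 1 value of Siah2 went with a signal of 238 in control replicate 1, against 599 and 536 in the other controls. Rpia of the pentose phosphate pathway had 0.43 over pairs of 0.74, 0.30 and 0.24 (limma adjusted p = 0.227 with the block), and passed without those arrays at 0.27 (limma adjusted p = 0.0255).

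In replicate 1, 12 of these 65 genes (18.5%) were lower and 5 (7.69%) higher, where 11.0% of all genes tested were lower and 14.6% higher, and the median log2 difference was −0.10. With so few genes a list, the counts of the lists below are a description and several lie near those shares. Other HIF target genes had 8 lower and 1 higher of 25, and pyruvate dehydrogenase genes 3 lower of 9. Other glycolysis genes, mostly isoforms of other tissues, had 1 lower (Slc16a1, a lactate and pyruvate transporter gene, −0.48) and 1 higher (Slc2a8, 0.38) of 14. The pentose phosphate list had 1 higher of 7 and the other HIF regulators 2 higher of 10. Named after their values were seen, Tfrc, the transferrin receptor gene, fell by 1.53 on the log2 scale in replicate 1, Fam162a, a HIF target gene of the mitochondria, by 0.83, and Pdk3 by 0.79 (limma adjusted p = 9.81e-04, 0.00478 and 0.00437). Arnt, the gene of the HIF1A partner, had 0.40 (limma adjusted p = 0.0552), and Epas1, the gene of HIF2A, was below the filter at 6.12 to 38.0.

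**Figure D5:**
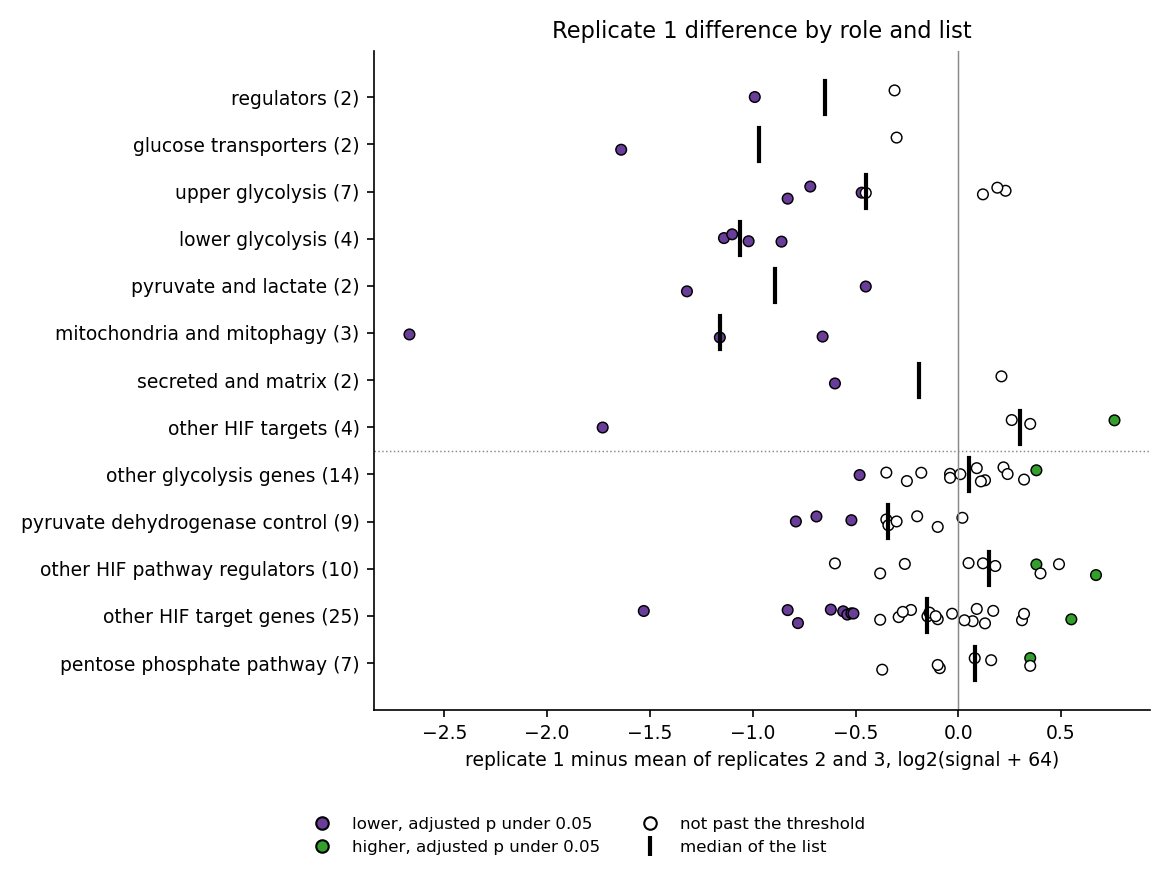
Log2 difference of replicate 1 from replicates 2 and 3 for each tested gene by role (above the dotted line, the 26 genes) and by list of other pathway genes (below it), with the number tested in brackets and a bar at the median. All 4 lower glycolysis genes lie between −1.14 and −0.86, while the 14 other glycolysis genes have a median of 0.05.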

How the data were processed

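The deposited values were probe set intensities on a linear scale from Affymetrix Mouse Genome 430 2.0 arrays, for which the authors used MAS5, per the submitters' processing notes. Its version is not given in the sources used here. The values show each array scaled to a mean of 500 after trimming 2% at each end. Of 45101 probe sets, the 34945 with exactly 1 symbol in the platform annotation were used, as log2(signal + 64), which understates changes of dim genes. Each gene was read from its brightest probe set, and genes below the 40th percentile (a signal of about 47) were left out. Limma 3.58.1 in R 4.3.3 (lmFit, eBayes, intensity trend) was run over all 10916 remaining genes with Benjamini-Hochberg adjustment and a two-sided threshold of 0.05. One fit had the groups alone, one added the replicate number as a block and also gave replicate 1 minus the mean of replicates 2 and 3, and one tested the change in pair 1 against that in pairs 2 and 3. Residual degrees of freedom were 4, 2 and 2.

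Same-numbered arrays deviated together from their group means (r = 0.62, 0.41 and 0.44 across genes, the limit being 0.1), and the numbers were therefore treated as pairs. Crossed replicates 2 and 3 correlated at 0.49 and 0.40, so the check bears on replicate 1 only. The labels do not say how far the cultures were independent, and p-values reflect only how far these arrays vary, the number of which limits the precision. The members and lists, and the split by replicate 1, were chosen with earlier results of these data known, so p-values for replicate 1 mainly describe. Named were all members, and of each other list every gene past the threshold without or with the block, or else the one with the largest change. The fits were tested on simulated data. The alternatives were other offsets, filters, scalings, probe set rules, no trend, array weights and left-out arrays, with those for single genes in the replicate 1 and pair comparisons chosen after seeing the data. Promoter windows came from RefSeq (GRCm38.p6), and 29 of 32 members had one. Array values have no genome build.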

Additional observations from a re-analysis of the deposited data

Results flagged for a closer look

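The change with NCOR1-LYN differed between pair 1 and pairs 2 and 3, by limma's test of that difference, in 6 genes of the set. The log2 change in pair 1 was higher than in pairs 2 and 3 by 0.88 in Pfkp, 0.72 in Higd1a and 0.55 in Pkm. It was lower in Mxi1 (−0.64), Bnip3 (−0.58) and Hk1 (−0.45). None of the 6 passed without an intensity trend, and Higd1a did not pass with the mean of all its probe sets (0.32, limma adjusted p = 0.241). Hk1 also did not pass without control replicate 2 or 3 (limma adjusted p = 0.0777 and 0.105), with no filter (0.0825) or with arrays centred on their median (0.0508), nor Pkm with no filter (0.0573).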

How the results depend on the processing

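With the replicate block, 1 other pathway gene was higher and 1 lower with NCOR1-LYN, against 0 and 0 without it, and the block changed no other call of the 26 genes or the 65 others. Array weights gave 1 higher and 1 lower of the 26 genes and 1 higher and 4 lower of the others. Leaving out both replicate 1 arrays gave 1 and 2 of the 26 genes and 5 and 7 of the others. Quantile normalization gave 1 higher of the others. Leaving out single arrays gave 0 to 1 higher of the others and moved the median change of the 26 genes between −0.23 (without control replicate 1) and 0.23 (without NCOR1-LYN replicate 1). In 19 genes of the set the sign of the group change turned under some setting, though none of these was called. For replicate 1, leaving out single arrays gave 0 to 4 higher genes (4 without NCOR1-LYN replicate 1, 0 without NCOR1-LYN or control replicate 2) and 11 to 18 lower. The median difference was −0.47 with no filter and −0.45 with the mean of all probe sets. The pair comparison gave 0 higher and 0 lower with no intensity trend, and 3 to 4 higher and 2 to 4 lower without single arrays. Centring arrays on their median moved the median of all genes for replicate 1 to −0.07, against 0.04. Dim genes such as Ankrd37 in replicate 1 and Aldoc are limited by signal over background. The cause of these shifts was not tested.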
